A study of Homo sapiens with 9 samples.

Results

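The 4 ID genes (ID1, ID2, ID3 and ID4), the HES and HEY repressors HES1, HES4 and HEY1, the Notch receptors NOTCH1 and NOTCH2 and the Notch ligand JAG1 were followed across 9 RNA sequencing libraries. They were taken by gene symbol from a deposited table of 27059 genes. All 10 had a row, and all 10 were among the 18540 genes that passed the filter on low counts. The labels give the cells as PC9/GR, a lung adenocarcinoma line that resists gefitinib, which blocks the EGF receptor, grown in RPMI medium with serum. They name 3 groups of 3 libraries: a control hairpin RNA (shNC) and, as sh1-HUMT and sh2-HUMT, a pair of hairpins aimed at HUMT, a long noncoding RNA. Since the title of the study concerns drug resistance and glycolysis under loss of HUMT, each comparison asks what a hairpin changed. All 9 libraries share the line and the medium, and nothing in the labels says that a gefitinib treatment, a clone or a separate culture stood behind any library, so the p-values rest on the spread among these libraries alone, which may be technical.

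The deposited headers give a different lung adenocarcinoma line, A549, and the arms as NC, Si_1 and Si_2, so the identity of the cells and arms rests on matching headers to titles by arm and replicate number. HUMT, listed as LINC00857 (gene ID 439990), was at 9.24 ± 0.679 CPM (counts scaled to 1e6 per library; SD, n = 3) in shNC, 9.61 ± 0.465 CPM in sh1-HUMT and 8.95 ± 0.575 CPM in sh2-HUMT. The targeted RNA was therefore not lower in the libraries labelled sh1-HUMT (log2 change 0.06, adjusted p = 0.685) or sh2-HUMT (log2 change -0.05, adjusted p = 0.740), by edgeR's quasi-likelihood test with Benjamini-Hochberg adjustment. Directions below are those of the libraries labelled so. Library totals ran from 21891060 to 22159921 estimated counts. Epithelial markers were all present (6 of 6 at 1 CPM or more), with a summed level of 5381 to 5616 CPM in shNC, 4213 to 4496 CPM in sh1-HUMT and 4323 to 4366 CPM in sh2-HUMT. The 4 lung adenocarcinoma and alveolar markers, NKX2-1 among them, summed to only 2.64 to 3.47 CPM over all libraries.

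ID proteins carry a helix-loop-helix domain but no basic region that binds DNA, so they hold E proteins and other bHLH factors away from their sites. Their genes are classical targets of BMP signals through SMAD1 and SMAD5, and respond to serum. Notch receptors, once bound by ligands such as JAG1 on a neighbouring cell, are cut to release an intracellular domain that joins RBPJ and Mastermind proteins on DNA. HES and HEY genes are the best known targets of that complex, and encode bHLH repressors that in turn hold down their own genes and those of differentiation factors. In lung epithelium Notch signals are known for setting secretory against ciliated fate.

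The start regions of 6 of the genes that were lower in both hairpin groups are shown so that matches to sites of such factors, and their absence, can be read in the sequence. Each runs from 250 bases before to 50 bases after the start of the gene in RefSeq on GRCh38.p14, 5′ to 3′ on the gene's strand. Capitals mark the letters of any of 7 motifs searched on both strands. They were the RBPJ core TGGGAA, the N box CACNAG (a HES site), the SMAD1/5 element GGCGCC, the cyclic AMP response element TGACGTCA, the AP-1 site TGANTCA, the EGR site GCGNGGGCG and the CArG box. No motif contains another, though matches may overlap.
ID1 at chr20:31605039-31605338, plus strand: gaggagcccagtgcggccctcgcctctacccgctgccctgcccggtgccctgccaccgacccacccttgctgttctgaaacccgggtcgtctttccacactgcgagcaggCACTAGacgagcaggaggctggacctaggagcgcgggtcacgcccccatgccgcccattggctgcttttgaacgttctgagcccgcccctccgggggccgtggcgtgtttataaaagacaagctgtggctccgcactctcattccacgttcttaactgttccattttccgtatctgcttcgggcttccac
ID2 at chr2:8681806-8682105, plus strand: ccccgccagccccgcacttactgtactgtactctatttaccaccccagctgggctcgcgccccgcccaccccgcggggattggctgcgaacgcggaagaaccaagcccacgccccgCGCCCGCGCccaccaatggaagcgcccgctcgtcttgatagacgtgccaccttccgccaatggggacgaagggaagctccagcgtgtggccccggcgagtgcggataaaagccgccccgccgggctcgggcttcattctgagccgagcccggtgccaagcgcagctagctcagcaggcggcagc
ID3 at chr1:23559452-23559751, minus strand: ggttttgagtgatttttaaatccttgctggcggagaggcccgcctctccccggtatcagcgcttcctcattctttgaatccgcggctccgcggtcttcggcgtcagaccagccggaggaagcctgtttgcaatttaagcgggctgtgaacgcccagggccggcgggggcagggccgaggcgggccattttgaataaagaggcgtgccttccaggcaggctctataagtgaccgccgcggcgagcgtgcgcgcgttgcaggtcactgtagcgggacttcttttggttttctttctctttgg
ID4 at chr6:19837120-19837419, plus strand: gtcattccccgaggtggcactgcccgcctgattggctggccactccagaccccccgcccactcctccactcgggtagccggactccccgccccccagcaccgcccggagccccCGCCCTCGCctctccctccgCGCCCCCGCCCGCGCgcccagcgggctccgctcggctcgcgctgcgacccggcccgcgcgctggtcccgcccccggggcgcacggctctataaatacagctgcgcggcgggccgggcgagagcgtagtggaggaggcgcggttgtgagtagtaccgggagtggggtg
HES1 at chr3:194135898-194136197, plus strand: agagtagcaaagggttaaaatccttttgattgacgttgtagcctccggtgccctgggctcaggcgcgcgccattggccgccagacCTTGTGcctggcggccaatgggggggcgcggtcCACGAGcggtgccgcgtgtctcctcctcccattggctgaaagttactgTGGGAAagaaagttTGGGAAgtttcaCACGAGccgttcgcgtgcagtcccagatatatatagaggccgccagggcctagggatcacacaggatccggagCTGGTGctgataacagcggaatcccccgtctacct
HES4 at chr1:1000048-1000347, minus strand: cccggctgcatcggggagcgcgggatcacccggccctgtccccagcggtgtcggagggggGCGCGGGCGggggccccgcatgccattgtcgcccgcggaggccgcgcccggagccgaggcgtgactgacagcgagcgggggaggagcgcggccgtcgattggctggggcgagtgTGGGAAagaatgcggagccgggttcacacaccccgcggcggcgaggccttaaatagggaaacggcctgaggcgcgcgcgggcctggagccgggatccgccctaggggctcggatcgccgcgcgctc

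In HES1 the RBPJ core stood with its first base at positions -84 and -70 from the start, and in HES4 at -76. Among the 9 members with a RefSeq window these were the 2 that held it, against 24% of all 35116 windows. The N box was in 4 of the 9 (ID1, HES1, NOTCH1 and NOTCH2), and HES1 held 4 copies, at -165, -132, -58 and 16; 38% of all windows held it. An EGR site was in 4 of the 9 (ID2, ID4, HES4 and NOTCH1) against 9.43% of all windows, with 3 matches in ID4 at -137, -117 and -111. The matches at -117 and -111 overlap. The set letters of the EGR site are all G or C, and the share over all windows was not matched for base composition. NOTCH1 was the 1 member window with the SMAD1/5 element, which 19.2% of all windows hold. The cyclic AMP response element (1.85% of all windows), the AP-1 site (7.71%) and the CArG box (1.29%) had no match in these 9 windows. ID3 and JAG1 held no match to any of the 7. These are matches of letters within a window, and no binding was measured. Sequence outside the window was not searched, so a missing match does not speak to sites farther from the start.

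Against shNC, 9 of the 10 genes changed in sh1-HUMT, 2 higher and 7 lower, where 31.9% of all tested genes were called (15.7% higher and 16.3% lower). In sh2-HUMT the same counts held, 9 called with 2 higher and 7 lower, where 32.5% of all tested genes were called (15.9% higher and 16.5% lower). The genes that fell were ID1, ID2, ID3, ID4, HES1, HES4 and HEY1 in each comparison, and those that rose were NOTCH1 and NOTCH2. The median log2 change over the 10 was -0.43 in sh1-HUMT and -0.33 in sh2-HUMT, beside medians over all tested genes of -0.0012 and -0.0001. Groups did not overlap for 9 of the 10 in sh1-HUMT (44.3% of all tested genes) and for 10 of 10 in sh2-HUMT (46.5%). Both comparisons use the same 3 shNC libraries, so their agreement is not independent. The 10 genes were chosen with earlier results of these data known, so their share called is a description only. In bulk samples fewer cells of a type and less RNA per cell cannot be told apart.

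**Figure D1:**
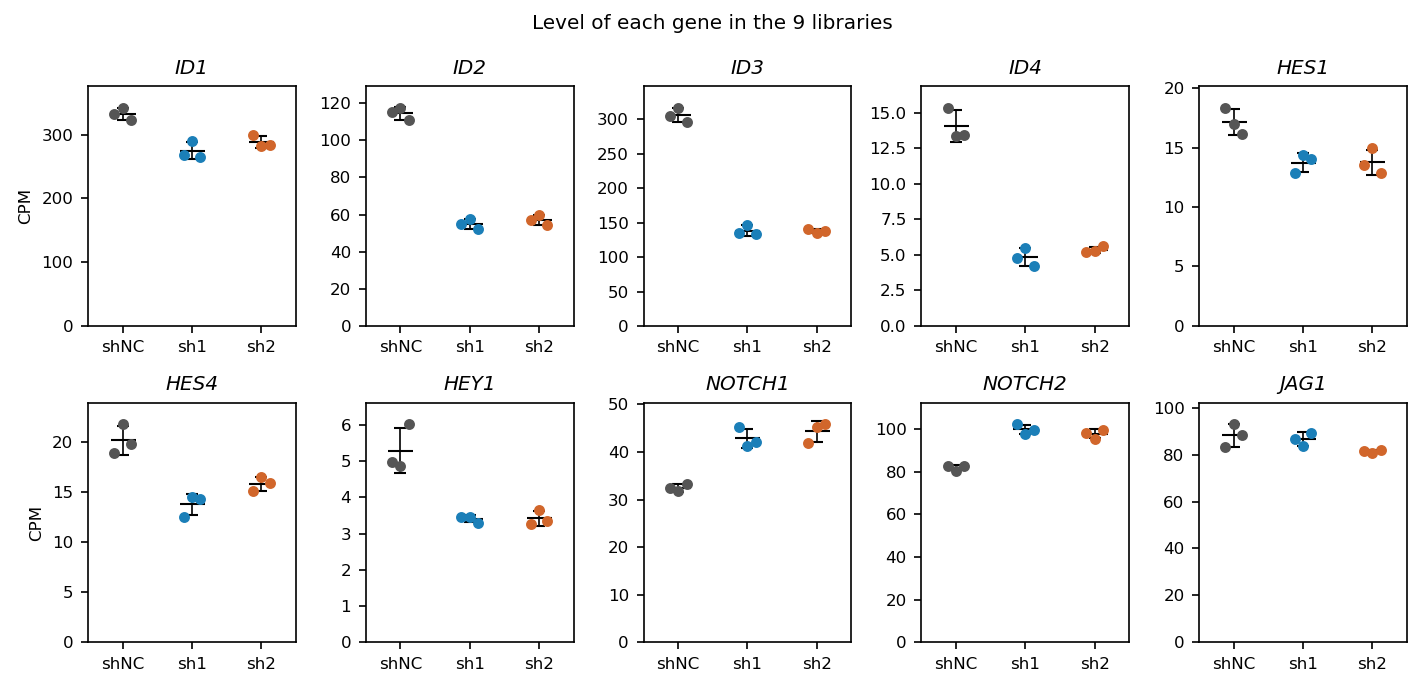
Level of each of the 10 genes in CPM (vertical axis, from 0, a scale of its own per gene) in each library, by group; points are libraries, long ticks are group means and bars are ± SD (n = 3). For every gene but JAG1 all 6 hairpin libraries lie beyond the 3 shNC libraries.

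ID3, an inhibitor of E proteins in lymphoid, vascular and epithelial cells, fell to below the level of any control in each hairpin library. It was at 306, 317 and 296 CPM in shNC, at 134, 147 and 134 CPM in sh1-HUMT and at 141, 135 and 138 CPM in sh2-HUMT. Controls and hairpin libraries stood far apart, the lowest control being above the highest hairpin library by more than the whole range of any group. ID3 fell 2.21-fold in sh1-HUMT (log2 change -1.14 ± 0.0388 SE, adjusted p = 8.9e-10) and 2.22-fold in sh2-HUMT (log2 change -1.15, 95% interval -1.23 to -1.06, adjusted p = 8.5e-10), by edgeR's quasi-likelihood test.

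ID2, which is known to bind the retinoblastoma protein besides bHLH factors, moved by nearly as much. Its levels were 115, 118 and 111 CPM in shNC, 54.9, 57.7 and 52.4 CPM in sh1-HUMT and 57.2, 59.8 and 54.3 CPM in sh2-HUMT. The controls and the hairpin libraries did not overlap, while the hairpin groups overlapped each other. The fall was 2.08-fold in sh1-HUMT (log2 change -1.06 ± 0.0455 SE, adjusted p = 8.1e-09) and 2.01-fold in sh2-HUMT (log2 change -1.004, 95% interval -1.10 to -0.91, adjusted p = 1.1e-08), by the same test.

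ID4, the least abundant of the family here and a gene best known from neural precursors and mammary epithelium, had the steepest fall of the 10 genes. It was at 15.3, 13.4 and 13.4 CPM in shNC, at 4.81, 5.48 and 4.20 CPM in sh1-HUMT and at 5.205, 5.30 and 5.59 CPM in sh2-HUMT. All 6 hairpin libraries lay under all 3 controls. ID4 fell 2.90-fold in sh1-HUMT (log2 change -1.54, 95% interval -1.78 to -1.30, adjusted p = 7.2e-07) and 2.61-fold in sh2-HUMT (log2 change -1.39, 95% interval -1.62 to -1.15, adjusted p = 1.5e-06), by edgeR's quasi-likelihood test. Its counts were 94 to 326 per library, so its interval is wider than those of ID2 and ID3. By size of change, ID4, ID3 and ID2 stood at percentiles 98.8, 97.3 and 96.8 of all tested genes in sh1-HUMT.

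ID1, an inhibitor of E proteins with roles in vessel growth and in keeping epithelial cells undifferentiated, fell less. Its levels were 332, 342 and 324 CPM in shNC, 269, 289.7 and 265 CPM in sh1-HUMT and 299, 281 and 283 CPM in sh2-HUMT. Controls did not overlap the hairpin libraries, while the hairpin groups overlapped each other. The change was 1.21-fold down in sh1-HUMT (log2 change -0.28, 95% interval -0.36 to -0.19, adjusted p = 0.000154) and 1.15-fold down in sh2-HUMT (log2 change -0.21, 95% interval -0.29 to -0.12, adjusted p = 0.00119), by the same test. For ID1 the percentile of the size of change in sh1-HUMT was 65.9.

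With levels per transcript length (FPKM, as deposited), the family can be added up. The summed ID level was 645 ± 25.1 FPKM in shNC, 429 ± 18.3 FPKM in sh1-HUMT and 442 ± 13.1 FPKM in sh2-HUMT (SD, n = 3). ID1 made up 49.5 ± 0.138% of that sum in shNC, 63.8 ± 0.159% in sh1-HUMT and 64.6 ± 0.530% in sh2-HUMT. The share of ID3 went from 37.1 ± 0.168% to 26.3 ± 0.144% and 25.4 ± 0.358%, and that of ID2 from 12.8 ± 0.0715% to 9.62 ± 0.197% and 9.67 ± 0.508%. ID4 held under 1% throughout. The family's RNA in the hairpin libraries was thus both lower and made up more of ID1. The ratio of ID1 to ID3 was 1.33 ± 0.00902 in shNC, 2.42 ± 0.0144 in sh1-HUMT and 2.55 ± 0.0473 in sh2-HUMT, with no overlap. An exact permutation test gave p = 0.1 for each hairpin group, the smallest p that 3 libraries against 3 allow.

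**Figure D2:**
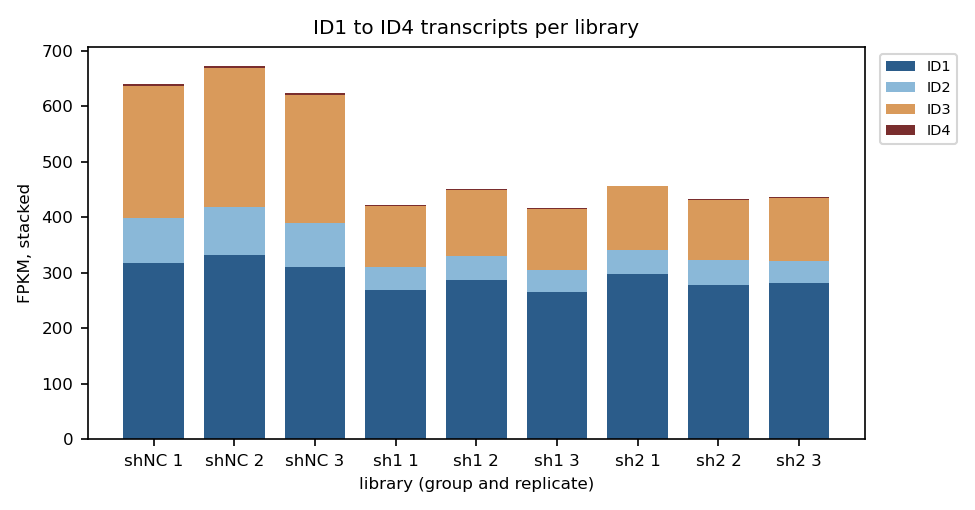
Level of the 4 ID genes per transcript length (FPKM, vertical axis from 0), stacked for each of the 9 libraries (horizontal axis, group and replicate). The stacks reach a mean of 645 FPKM in shNC and of 429 and 442 FPKM in the hairpin groups, where the ID3 and ID2 layers are thinner than in shNC and the ID1 layer takes most of the stack.

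HES1, the repressor best known for holding back neural and endocrine fates, was lower in each hairpin group. It was at 18.3, 16.9 and 16.1 CPM in shNC, at 12.9, 14.3 and 14.0 CPM in sh1-HUMT and at 13.5, 14.9 and 12.8 CPM in sh2-HUMT. Controls did not overlap the hairpin libraries, though the highest hairpin library came close to the lowest control, and the hairpin groups overlapped each other. HES1 fell 1.25-fold in sh1-HUMT (log2 change -0.32, 95% interval -0.50 to -0.14, adjusted p = 0.00990) and 1.25-fold in sh2-HUMT (log2 change -0.32, 95% interval -0.49 to -0.14, adjusted p = 0.00998), by edgeR's quasi-likelihood test. Each call is lost without shNC replicate 1, the library where HES1 was highest (adjusted p = 0.0501 in sh1-HUMT and 0.0516 in sh2-HUMT). Over all alternatives the adjusted p ran from 0.00599 to 0.0501 and from 0.00619 to 0.0516.

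HES4, a relative of HES1 that the mouse lacks, fell in each comparison. Its levels were 19.0, 21.8 and 19.8 CPM in shNC, 12.6, 14.5 and 14.3 CPM in sh1-HUMT and 15.1, 16.5 and 15.9 CPM in sh2-HUMT. The sh2-HUMT libraries lay between the other groups, with no overlap to either. HES4 fell 1.46-fold in sh1-HUMT (log2 change -0.55, 95% interval -0.72 to -0.38, adjusted p = 0.000230) and 1.28-fold in sh2-HUMT (log2 change -0.35, 95% interval -0.52 to -0.18, adjusted p = 0.00438), by the same test. In the deposited FPKM the sh2-HUMT libraries (10.78 to 11.62) overlapped shNC (11.07 to 13.25), and the length implied by count and FPKM ran from 1.41 to 1.74 kb over libraries; its part in the difference was not tested.

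HEY1, a repressor known from vascular and cardiac development as a Notch target, was the least abundant of the 10 genes by count, with 73 to 128 per library. It was at 4.99, 4.88 and 6.02 CPM in shNC, at 3.47, 3.46 and 3.31 CPM in sh1-HUMT and at 3.28, 3.67 and 3.35 CPM in sh2-HUMT. Controls and hairpin libraries did not overlap. HEY1 fell 1.55-fold in sh1-HUMT (log2 change -0.63, 95% interval -0.92 to -0.35, adjusted p = 0.00291) and 1.54-fold in sh2-HUMT (log2 change -0.62, 95% interval -0.91 to -0.34, adjusted p = 0.00302), by edgeR's quasi-likelihood test. Its intervals were the widest of the 10.

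**Figure D3:**
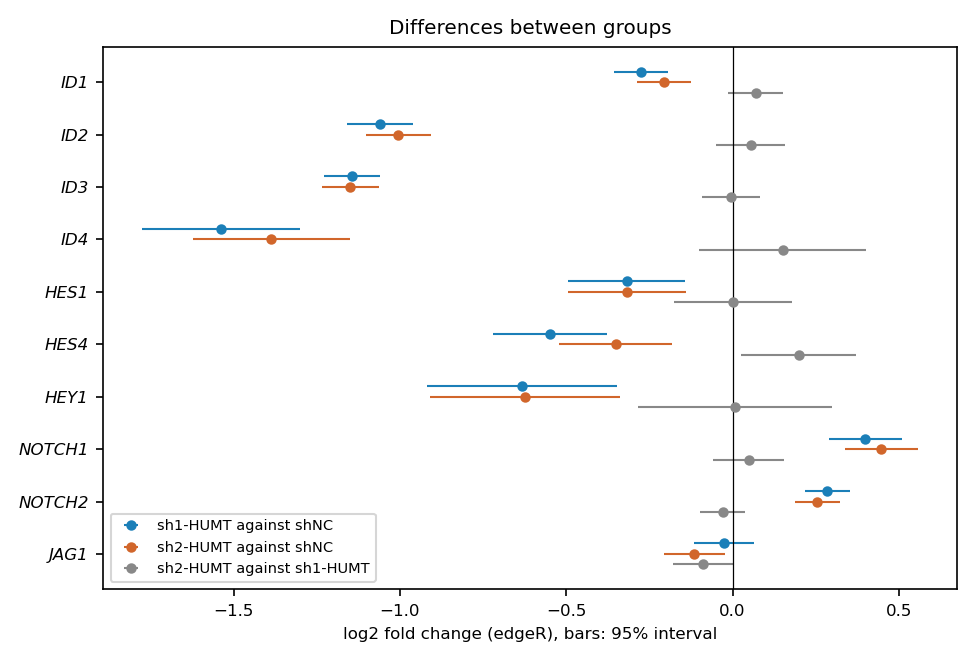
Log2 fold change of each gene (horizontal axis) against shNC in sh1-HUMT and sh2-HUMT, and of sh2-HUMT against sh1-HUMT in grey, with 95% intervals from edgeR; the line at 0 is no change. ID2, ID3 and ID4 lie at or below -1, HES1, HES4, HEY1 and ID1 between -1 and 0, and NOTCH1 and NOTCH2 above 0 against shNC; JAG1 and the grey points sit near 0.

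The receptors moved the other way. NOTCH1, the receptor most often mutated in leukemia and squamous tumors, was at 32.4, 31.7 and 33.3 CPM in shNC, at 45.1, 41.3 and 42.2 CPM in sh1-HUMT and at 41.9, 45.3 and 45.8 CPM in sh2-HUMT. Every hairpin library was above every control. It rose 1.32-fold in sh1-HUMT (log2 change 0.40, 95% interval 0.29 to 0.51, adjusted p = 8.97e-05) and 1.36-fold in sh2-HUMT (log2 change 0.45, 95% interval 0.34 to 0.56, adjusted p = 3.28e-05), by edgeR's quasi-likelihood test. Corrected for GC content and length, the log2 change was 0.26 in each comparison (adjusted p = 0.00152 in both).

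NOTCH2, a receptor with a part in liver, bone and B cell development, was at 82.6, 80.5 and 82.8 CPM in shNC, at 102, 97.8 and 99.6 CPM in sh1-HUMT and at 98.2, 95.6 and 99.7 CPM in sh2-HUMT. The hairpin libraries were again all above the controls. It rose 1.22-fold in sh1-HUMT (log2 change 0.29, 95% interval 0.22 to 0.35, adjusted p = 2.83e-05) and 1.19-fold in sh2-HUMT (log2 change 0.26, 95% interval 0.19 to 0.32, adjusted p = 6.41e-05), by the same test. After the correction for GC content and length it was 0.16 in each (adjusted p = 0.000801 and 0.00104). NOTCH2 shares near-identical sequence with NOTCH2NLA, NOTCH2NLB and NOTCH2NLC, which were at group means of 0.462 to 3.34 CPM, and how reads were divided among these copies is uncertain. By the same test NOTCH2NLB was called lower in sh1-HUMT (log2 change -1.48, adjusted p = 0.0179), at counts of 5.21 to 15.36 there. It was not called in sh2-HUMT (log2 change 0.33), and NOTCH2NLA and NOTCH2NLC were not called in either comparison.

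JAG1, the ligand, was not called in either comparison. It was at 83.1, 92.9 and 88.5 CPM in shNC, at 86.8, 83.7 and 89.4 CPM in sh1-HUMT and at 81.7, 80.8 and 81.8 CPM in sh2-HUMT. The sh1-HUMT libraries overlapped the controls, and the sh2-HUMT libraries lay just under them. The log2 change was -0.03 in sh1-HUMT (95% interval -0.12 to 0.07, adjusted p = 0.698) and -0.11 in sh2-HUMT (95% interval -0.21 to -0.02, adjusted p = 0.0541), by edgeR's quasi-likelihood test. The sh2-HUMT value crossed the threshold under DESeq2 (adjusted p = 0.0401), with the GC and length correction (log2 change -0.17, adjusted p = 0.00700), without sh1-HUMT replicate 2 (0.0456) and without shNC replicate 1 (0.0170), in a range of 0.00700 to 0.239 over the alternatives. ID2, ID4, NOTCH1 and JAG1 overlap an antisense gene in the GENCODE annotation, and no source says that strand was used in counting, so reads within each pair cannot be told apart.

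Per transcript length the order in shNC was ID1 (319 FPKM), ID3 (239.7), ID2 (82.8), JAG1 (14.2), HES4 (12.1), HES1 (11.1), NOTCH2 (6.87), ID4 (3.52), NOTCH1 (3.36) and HEY1 (2.43). HES4 and HES1 overlapped there, as did ID4 and NOTCH1. In the hairpin groups NOTCH1 (4.55 and 4.76 FPKM) stood above ID4 (1.34 and 1.44 FPKM) in every library. The level of HES1 relative to NOTCH1 was 3.29 ± 0.150 in shNC, 2.08 ± 0.179 in sh1-HUMT and 1.97 ± 0.187 in sh2-HUMT, on FPKM. ID1, ID3, ID2 and JAG1 kept the highest 4 places, in that order, in all 3 groups.

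**Figure D4:**
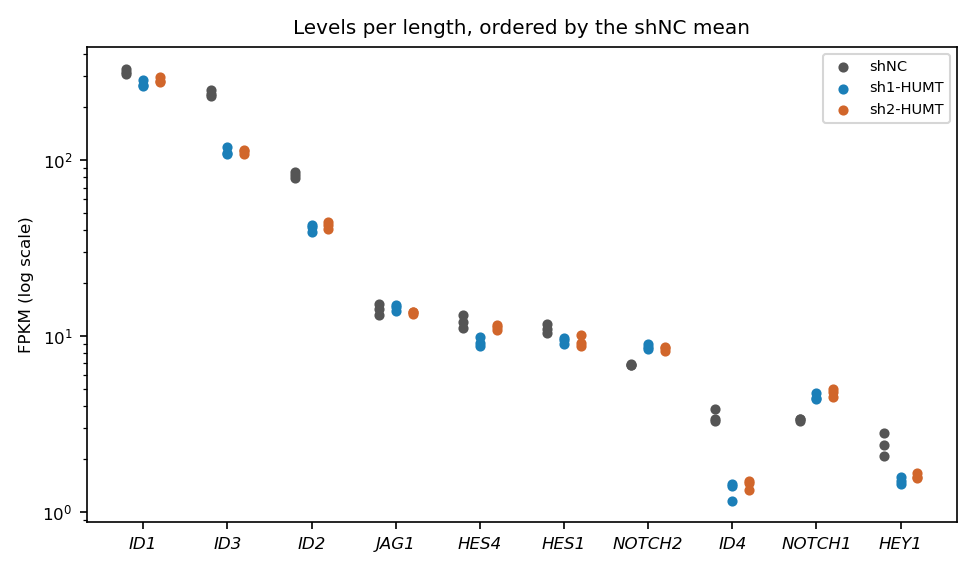
Level per transcript length (FPKM, logarithmic vertical axis) of the 10 genes in each library of the 3 groups. ID1, ID3 and ID2 stand above the rest in all libraries, and ID4 moves from beside NOTCH1 to beside HEY1 in the hairpin groups.

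Between the hairpin groups none of the 10 genes was called, where 0.286% of all tested genes were, by edgeR's quasi-likelihood test; DESeq2 called none of them either. At an unadjusted p under 0.05, 1 gene passed: HES4 was higher in sh2-HUMT by 0.20 on the log2 scale (95% interval 0.02 to 0.37, unadjusted p = 0.0285, adjusted p = 0.346), where 11.8% of all tested genes passed at that level. Its groups did not overlap, nor did those of JAG1 (18.4% of all tested genes). The intervals of the log2 difference were -0.09 to 0.08 for ID3, -0.05 to 0.16 for ID2, -0.10 to 0.40 for ID4 and -0.01 to 0.15 for ID1. For HEY1 the interval ran from -0.28 to 0.30, the widest of the 10.

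Other genes of these pathways were taken from lists, and are given by their counts, to be read against the 31.9% (sh1-HUMT) and 32.5% (sh2-HUMT) of all tested genes called. DTX1, BAMBI, SMAD6 and SMAD7 each stand in a pair of lists and are counted in both. Of 6 other tested Notch ligands and receptors, 2 rose and 0 fell in sh1-HUMT, and 3 rose and 0 fell in sh2-HUMT, with medians of 0.32 and 0.45. The shares called were 33.3 and 50%, the first near that of all genes. NOTCH3, a receptor of smooth muscle and of some lung tumors, went from 91.1 ± 0.199 CPM in shNC to 119 ± 1.33 CPM in sh1-HUMT and 125 ± 1.99 CPM in sh2-HUMT (log2 change 0.39 and 0.45, adjusted p = 5.21e-07 and 1.21e-07). JAG2, the other Jagged ligand, rose by 0.26 and 0.45 on the log2 scale (adjusted p = 0.00442 and 8.59e-05). With the GC and length correction these were 0.26 and 0.27 for NOTCH3 and 0.17 and 0.29 for JAG2.

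Of 26 genes that cut, glycosylate or turn over Notch receptors, 9 rose and 5 fell in sh1-HUMT, and 9 rose and 4 fell in sh2-HUMT, with medians of -0.04 and 0.02 (53.8 and 50% called, beside 31.9 and 32.5% of all genes). MFNG, a Fringe enzyme that adds sugar to Notch, rose by 0.65 and 0.79 (log2), DTX4, a Deltex ubiquitin ligase, rose by 0.38 and 0.45, and PSENEN, a subunit of gamma-secretase, fell by 0.26 and 0.25. Of 22 genes of the nuclear complex and its corepressors, 6 rose and 4 fell in sh1-HUMT, and 7 rose and 4 fell in sh2-HUMT (45.5 and 50% called). RBPJ itself, the DNA-binding subunit, was not called, at 38.9, 41.1 and 41.4 CPM in the 3 groups (log2 change 0.08 and 0.09). TLE4, a Groucho corepressor, rose by 0.37 and 0.42, and KAT2B, an acetyltransferase, by 0.35 and 0.31.

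MAML3, a Mastermind coactivator, was at 34.2 ± 6.48 CPM in shNC, 51.3 ± 4.69 CPM in sh1-HUMT and 50.2 ± 5.85 CPM in sh2-HUMT. Its log2 changes of 0.59 and 0.55 were called (adjusted p = 0.0186 and 0.0235, edgeR), but the first call is lost without sh1-HUMT replicate 1 (0.0597) or shNC replicate 2 (0.0635). The second is lost without sh2-HUMT replicate 2 (0.0658), sh2-HUMT replicate 3 (0.0646) or shNC replicate 2 (0.0754), with only the 2 groups compared (0.0561) and with the replicate number as a block (0.0587). Over the alternatives the adjusted p ran from 0.00165 to 0.0635 and from 0.00293 to 0.0754.

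Of 12 other tested HES, HEY and Notch target genes, 1 rose and 5 fell in sh1-HUMT, and 3 rose and 4 fell in sh2-HUMT (50 and 58.3% called, beside 31.9 and 32.5% of all genes). MYC, a transcription factor that Notch is known to induce in T cells, went from 192 ± 0.853 CPM to 125 ± 3.84 and 125 ± 2.46 CPM (log2 change -0.62 in each, adjusted p = 1.70e-08 and 1.46e-08). BHLHE40, a repressor of the clock and hypoxia responses, went from 454 ± 9.32 CPM to 316 ± 7.87 and 312 ± 4.71 CPM (log2 change -0.53 and -0.54). SOX9, a factor of distal lung progenitors, rose by 0.63 and 0.50. Relatives of the HES and HEY members did not all move down. In shNC, sh1-HUMT and sh2-HUMT, HES7 had means of 21.33, 23.03 and 26.23 CPM, and HES2 of 2.54, 2.95 and 4.12 CPM. HEYL was at 11.18, 12.10 and 11.68 CPM, and HES6 was lower in the hairpin groups, at 7.76, 5.93 and 7.10 CPM. NRARP, another gene of this list, was at 10.96, 9.66 and 11.09 CPM.

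On the BMP side, 1 of 22 tested ligands, receptors and inhibitors rose and 4 fell in sh1-HUMT, and 4 rose and 3 fell in sh2-HUMT, or 22.7 and 31.8% called beside 31.9 and 32.5% of all genes. The count in sh2-HUMT, 7 called, was 4 without sh2-HUMT replicate 1, 2 or 3, 3 without shNC replicate 2, 2 without shNC replicate 3, 3 by DESeq2 and 4 with no filter on low counts. The inhibitors BMPER (log2 change -0.53 and -0.67) and FSTL3 (-0.51 and -0.37) fell. Of 14 SMAD genes, 1 rose and 7 fell in sh1-HUMT, and 2 rose and 8 fell in sh2-HUMT (57.1 and 71.4% called). SKIL, a SMAD corepressor that TGF-beta induces, went from 84.7 ± 5.28 CPM to 47.4 ± 2.56 and 41.8 ± 2.27 CPM (log2 change -0.84 and -1.02). SMAD7, an inhibitory SMAD, fell by 0.48 in each, and SMAD2, which serves TGF-beta and activin rather than BMP, fell by 0.29 and 0.46. SMAD2 was also called lower in sh2-HUMT than in sh1-HUMT, a call that held in 2 of 19 alternatives. SMAD3 had higher means, at 378, 431 and 442 CPM in shNC, sh1-HUMT and sh2-HUMT. Of the SMADs that serve BMP, SMAD1 was at 12.4, 11.4 and 9.96 CPM and SMAD5 at 58.7, 62.9 and 58.4 CPM.

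Of 10 tested target genes of BMP, SMAD and ID pathways that are not among the members, 0 rose in either comparison, and 7 fell in sh1-HUMT and 5 in sh2-HUMT, with medians of -0.26 and -0.19 (70 and 50% called, beside 31.9 and 32.5% of all genes). SMAD7, given above, is in this list too. ATOH8, a bHLH factor induced by BMP signals, went from 48.0 ± 1.05 CPM to 26.2 ± 2.51 and 29.2 ± 0.953 CPM (log2 change -0.88 and -0.72, adjusted p = 5.39e-07 and 2.62e-06). MSX1, a homeobox gene and a BMP target, fell by 0.67 and 0.48. Among the 9 tested bHLH partners of ID proteins 0 rose and 1 fell in sh1-HUMT, and 1 rose and 2 fell in sh2-HUMT. Their shares called were 11.1 and 33.3%, the second near that of all genes. The 1 call in sh1-HUMT became 2 without sh1-HUMT replicate 1 or shNC replicate 1, 3 without shNC replicate 2 or with upper-quartile normalization, and 4 with the GC and length correction. MSC, a bHLH repressor of muscle genes, fell in each (log2 change -0.32 and -0.38). TCF3, an E protein, was not called (log2 change -0.06 and -0.03). TCF12, a more abundant E protein here, was at 113, 108 and 97.4 CPM in shNC, sh1-HUMT and sh2-HUMT. It was called lower in sh2-HUMT (log2 change -0.21) and not called in sh1-HUMT. Its call between the hairpin groups (log2 change -0.15) held in 3 of 19 alternatives.

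**Figure D5:**
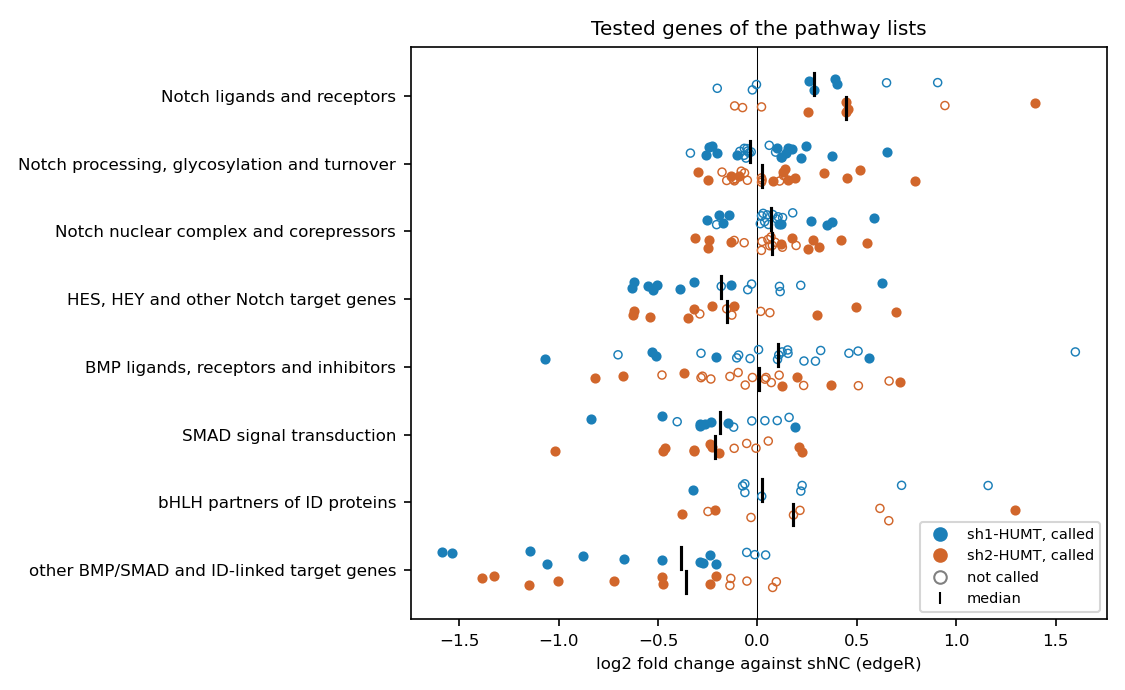
Log2 fold change against shNC (horizontal axis) of the tested genes of 8 pathway lists, members included, in sh1-HUMT and sh2-HUMT. Each point is a gene, filled where called and open where not, and vertical ticks are list medians; called Notch ligands and receptors all lie above 0, and called BMP, SMAD and ID-linked targets all lie below it.

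Immediate early genes are those that serum and growth factors switch on within minutes. They were lower in the same libraries as the ID genes. Of 15 tested, 1 rose and 13 fell in each comparison, with medians of -1.61 and -1.74 on the log2 scale. The share called was 93.3% in each, beside 31.9 and 32.5% of all tested genes. EGR1 was at 326 ± 5.83 CPM in shNC, 6.20 ± 0.318 CPM in sh1-HUMT and 4.94 ± 0.220 CPM in sh2-HUMT, FOSB at 162 ± 4.50, 6.90 ± 0.701 and 6.95 ± 0.154 CPM, and EGR2 at 18.2 ± 0.650, 0.0894 ± 0.000441 and 0.105 ± 0.0694 CPM. EGR2 counts were 2 in each sh1-HUMT library and 1 to 4 in sh2-HUMT, near the floor, so its SDs there say little. For FOSB the deposited FPKM had means of 39.4, 0.31 and 0.327, a steeper fall than in CPM. The size of its fall thus depends on the scale, and the reason was not tested. The part of the immediate early genes in the ID and HES changes was not tested. Markers of other cell types were also summed. The fibroblast list summed to 16.2 to 20.2 CPM in shNC, 21.1 to 22.5 in sh1-HUMT and 24.2 to 25.6 in sh2-HUMT, and the endothelial list to at most 2.49 CPM in any library. Nearly all of the fibroblast sum was COL1A1 (17.2, 20.9 and 23.9 CPM in the 3 groups), with DCN at 0 in all 6 hairpin libraries and 0.0157 CPM in shNC. The leukocyte list summed to 50.6 to 53.3, 35.5 to 38.2 and 37.6 to 39.3 CPM, nearly all of it CD68 (51.6, 36.8 and 38.6 CPM), while PTPRC was at 0.125, 0.134 and 0.0598 CPM. The neuroendocrine list summed to 7.95 to 8.56 CPM in shNC, 9.70 to 11.4 CPM in sh1-HUMT and 10.6 to 12.1 CPM in sh2-HUMT. Their part in the results was not tested either.

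Likeness to each member but HEY1, whose mean was under 5 CPM, was measured as Pearson's r of log2 CPM over the 9 libraries, among 12559 genes at a mean of at least 5 CPM. Controls and hairpin libraries stand apart for most genes named, so r mostly reflects that step and is given as a description. Closest to ID3 were MAP4K3 (0.998) and SRSF2 (0.997), to ID4 SHB (0.996) and EEF1A2 (0.996), and to ID1 PPP1R14B (0.990) and AKR1B1 (0.988). To ID2 the closest named gene was OSER1 (0.998). HES1 was closest to FHL1 (0.982) and TPM3 (0.976), and HES4 to DAPK3 (0.980) and HTRA1 (0.976). NOTCH1 was closest to ZCCHC2 (0.995) and INSR (0.994), NOTCH2 to TNS3 (0.996) and DIDO1 (0.993), and JAG1 to TMEM38B (0.960) and UBE2K (0.926).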

How the data were processed

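RNA sequencing of 9 libraries was analysed from 1 deposited table. The authors' estimated counts per gene carry decimals, and 9 further deposited columns hold values taken here as FPKM, because the count divided by the value gives a nearly constant length per gene; no source states that unit. A further 6 value columns were not used. Tools listed in the submitters' processing notes, with no roles, were RSEM 1.2.12, DESeq2 1.4.5, Bowtie2 2.2.5 and HISAT2 2.0.4. The build behind the counts was not given in the sources used here.

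Counts were rounded and tested in edgeR 4.0.16 (R 4.3.3): TMM factors (0.968 to 1.02), filterByExpr, a quasi-likelihood fit of all 9 libraries, Benjamini-Hochberg adjustment over 18540 genes and a threshold of 0.05. The common biological coefficient of variation was 7.02%. CPM used TMM-scaled totals, and SDs are over 3 libraries. Replicates of a group differed by more than sampling noise. The steps were tested on simulated data. Alternatives were DESeq2 1.42.0, other normalizations and filters, a fold minimum, a replicate block, GC content and length (known for 85.8% of tested genes), and leaving out each library.

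The members and lists were chosen with earlier results of these data known. Genes named from lists are up to 3 per list, no member, called the same way in both hairpin groups, at a mean of at least 5 CPM with all 6 hairpin libraries beyond the 3 controls, ranked by the smaller change.
RBPJ, TCF3, TCF12, HES2, HES6, HES7, HEYL, NRARP, SMAD1, SMAD3 and SMAD5 fall outside that rule and were chosen after their values were seen. Likeness took the 2 genes with the highest r per member with a mean of at least 5 CPM.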

Additional observations from a re-analysis of the deposited data

How the results depend on the processing

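Over 19 alternatives per comparison, the calls of the 10 genes against shNC held except for HES1 without shNC replicate 1, JAG1 as given above, and a minimum log2 change of 1, which left 3 called genes in each comparison. With that minimum, 361 and 372 of all tested genes stayed called in sh1-HUMT and sh2-HUMT, and 2 between the hairpin groups. Between the hairpin groups 53 genes were called, against 366 by DESeq2, 35 with only the 2 groups compared, 29 with the replicate number as a block and 1 to 155 when 1 library was left out (155 without sh1-HUMT replicate 2, 16 and 27 without replicates 1 and 3, 1, 6 and 9 without sh2-HUMT replicates 1, 2 and 3, and 24 without shNC replicate 1). The causes were not tested.

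Replicate numbers did not pair the libraries: same-numbered libraries correlated at -0.0247 to 0.04998 in their deviations, and not every library correlated best with its own number. With the replicate block, 9, 9 and 0 of the 10 genes were called, and 5717, 5778 and 29 of all genes.

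Direction turned only in differences that were not called. Between the hairpin groups HES1 was -0.0093 with the GC and length correction, -0.000134 with the replicate block and -0.059 to 0.0486 with 1 library left out. NOTCH1 was -0.0030 with the correction. With 1 library left out, HEY1 ran from -0.0397 to 0.0402 and ID3 from -0.0279 to 0.0415. JAG1 in sh1-HUMT against shNC ran from -0.0633 to 0.0183, the last without shNC replicate 2. Counts of 73 to 128 per library limit HEY1 most.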
